A study of Mus musculus with 3 samples.

Results

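The genes described here are 10 genes of the elastic fibre: Eln, Fbn1, Fbn2, Mfap2, Mfap5, Mfap4, Fbln2, Fbln5, Emilin1 and Lox. They were picked by symbol as known parts of the fibre, with earlier results of these data known. All 10 were among the 27998 genes of the deposited tables. An elastic fibre has a core of cross-linked elastin laid down on a scaffold of fibrillin microfibrils. Microfibril-associated proteins decorate the scaffold, fibulins and EMILIN join elastin to it, and lysyl oxidase cross-links elastin chains outside the cell. In skin, dermal fibroblasts are the main source of these proteins, and the fibres give the dermis its recoil.

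The study profiled cells from the back skin of C57BL/6 mice by droplet single-cell RNA sequencing, with 1 library from neonatal mice, 1 from mice of 3 weeks and 1 from mice of 2 months. No mutation or treatment is recorded for any library, and the number of mice behind each is not recorded either. Cells were released from minced skin with collagenase D and DNase 1. With 1 library per age, differences between ages have no replicate check, and their 95% intervals cover counting error only.

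The libraries held 84086755 unique molecular identifiers (UMIs, counts of distinct captured transcripts) in the neonatal library, 113874172 in the 3-week library and 98432611 in the 2-month library. Barcodes with at least 300 genes, at least 500 UMIs and at most 10% mitochondrial UMIs numbered 7911, 8900 and 9332 at the 3 ages. The libraries shared between 23 and 31 barcodes in each pair, and what these add to the values below was not tested. Cells were gated into classes by scores over marker genes that hold none of the 10. Fibroblast-like cells numbered 5983 in the neonatal library, 5521 in the 3-week library and 4833 in the 2-month library. Clustering without the 10 genes put 6687, 5618 and 4862 cells in fibroblast-like clusters, so the gate left out most in the neonatal library. Of the gated fibroblast-like cells, 220, 14 and 43 lay near the score cut. All 7 of their markers, Pdgfra and Dcn among them, were detected in the class as a whole in each library. A single cell did not need all 7. In the fibroblast-like cells, the summed markers of every other class stayed at or below 333 CPM (UMIs of the genes per 1e6 UMIs of the class in that library), and the sebaceous and keratinocyte lists were the highest of them.

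Proximal promoters are shown for 3 members whose patterns across fibroblast subtypes or ages are set out below: Fbn1, Mfap2 and Fbln5. Each window runs from 250 bases before to 50 bases after the RefSeq gene start (GRCm38.p6), printed 5′ to 3′ on the gene's own strand. Capitals mark the GC box GGGCGG, or its complement, and the CCAAT box. The windows lie at chr2:125506389-125506688 (minus strand) for Fbn1, chr4:141010431-141010730 (plus strand) for Mfap2 and chr12:101819070-101819369 (minus strand) for Fbln5.
Fbn1: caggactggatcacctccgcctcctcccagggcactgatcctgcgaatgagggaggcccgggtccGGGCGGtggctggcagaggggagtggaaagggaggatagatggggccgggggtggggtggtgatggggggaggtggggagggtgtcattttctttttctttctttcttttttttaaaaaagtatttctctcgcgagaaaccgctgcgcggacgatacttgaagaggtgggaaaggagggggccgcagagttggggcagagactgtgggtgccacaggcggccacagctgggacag
Mfap2: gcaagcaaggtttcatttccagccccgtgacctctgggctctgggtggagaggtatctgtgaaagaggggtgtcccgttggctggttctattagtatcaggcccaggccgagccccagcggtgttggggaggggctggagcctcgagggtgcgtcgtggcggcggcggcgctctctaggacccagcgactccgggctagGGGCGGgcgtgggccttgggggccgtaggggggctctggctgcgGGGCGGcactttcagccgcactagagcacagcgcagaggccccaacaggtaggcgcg
Fbln5: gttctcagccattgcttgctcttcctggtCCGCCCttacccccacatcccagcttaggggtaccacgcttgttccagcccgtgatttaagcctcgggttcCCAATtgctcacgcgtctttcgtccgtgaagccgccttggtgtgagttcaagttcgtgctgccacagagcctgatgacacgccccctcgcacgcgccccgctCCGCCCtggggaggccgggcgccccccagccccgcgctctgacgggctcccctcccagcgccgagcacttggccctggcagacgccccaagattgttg

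GC content was 60.3% in the Fbn1 window, 68% in the Mfap2 window and 65.7% in the Fbln5 window. The motif GGGCGG, searched on both strands, occurred 1 time in the Fbn1 window and 2 times in each of the other windows, and 35.7% of all 32851 promoter windows of this length hold it. CCAAT occurred 1 time, in the Fbln5 window, and 37.4% of all windows hold it. TATAAA (13.6% of all windows), TGANTCA (7.81%) and GGAATG (14.7%) had no match in these 3 windows. Mfap2 and Fbln5 each had a second promoter window, which is not printed. That of Mfap2 held 1 CCAAT, 1 GGAATG and 0 GGGCGG, and that of Fbln5 held none of these motifs. In the GENCODE annotation of GRCm38 all 10 are protein-coding genes. There the Fbn1 gene reaches position 125507993 on its 5′ side, so the Fbn1 window lies inside the annotated gene. The Mfap2 gene starts there at position 141010418, so the printed Mfap2 window lies inside its annotated gene as well. Eln (chromosome 5, 134702593 to 134747323, minus strand) and Emilin1 (30913402 to 30921277, plus strand) share a chromosome, as do Mfap5 (chromosome 6, 122505845 to 122529290) and Fbln2 (91212455 to 91272540), both on the plus strand. Mfap4 lies on chromosome 11 (61485431 to 61488900, plus strand). Fbn2 and Lox lie on chromosome 18, and no sequence of theirs is shown.

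Elastic fibre transcripts came mostly from fibroblast-like cells. These cells made up 75.6% of the neonatal barcodes, 62% of those at 3 weeks and 51.8% of those at 2 months, and they held between 85% and 97.4% of the UMIs of each of the 10 genes in each library. All 10 genes were higher in fibroblast-like than in keratinocyte-like cells of the same libraries, by 6.15 for Fbn2 to 8.01 for Lox on the log2 scale (edgeR quasi-likelihood test with the library as a block, Benjamini-Hochberg adjusted p between 0.000496 and 0.00367). Of all 14163 genes in that fit, 26.3% were higher and 20.1% lower. A list of 47 further genes that act with elastic fibres, called the pathway list below, had 42 in this fit, of which 34 rose and 0 fell. Its Dcn and Itga8 are also gate markers. Dcn helps define the fibroblast-like class, so its rise was set in part by the gate. The shares of all genes leave gate markers out.

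After every cell was thinned to 1500 UMIs, Mfap2 was seen in 83.6% of neonatal, 76.9% of 3-week and 54.6% of 2-month fibroblast-like cells. The unthinned shares were 98.5%, 98.4% and 88.5%. Keratinocyte-like cells, which should lack the gene, had an Mfap2 UMI in 3.05%, 2% and 0.79% of thinned cells, from median depths of 18137, 11864 and 10553 UMIs against 9132, 12289 and 10167 in fibroblast-like cells. Thinning left out 19, 12 and 98 fibroblast-like cells. Thinned shares for Eln were 43.7%, 70.6% and 53.2%, and the highest for this gene in keratinocyte-like or lymphocyte-like cells was 3.72%. A thinned fibroblast-like cell held UMIs of 3.51 of the 10 genes on average in the neonatal library, 4.33 at 3 weeks and 3.24 at 2 months, whereas keratinocyte-like cells held at most 0.103.

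**Figure D1:**
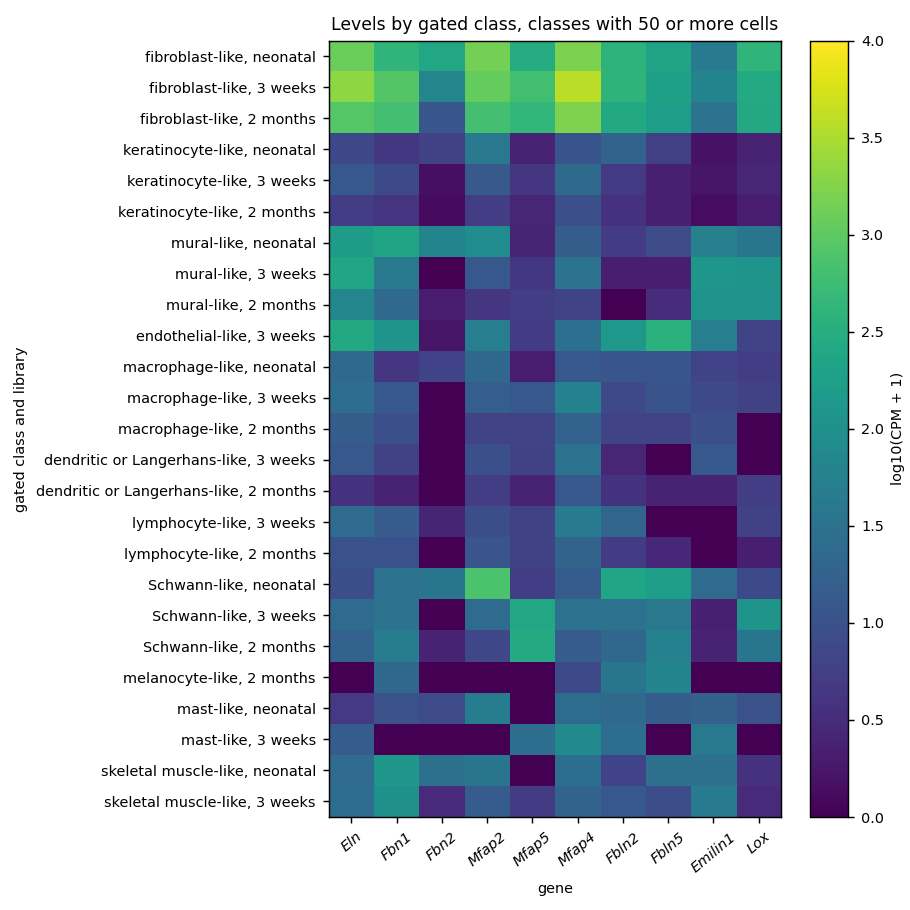
Heat map of log10(CPM + 1) for each of the 10 genes (columns) in each gated class and library with 50 or more cells (rows). The 3 fibroblast-like rows are bright for nearly all genes. Mural-like cells show Eln, Emilin1 and Lox among others. Schwann-like cells stand out for Mfap2 in the neonatal library and Mfap5 in the later ones.

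Other classes had parts of the set rather than the whole. Mural-like cells, which carry pericyte and smooth muscle markers, had Emilin1 at 55.0 CPM in the neonatal library, 128 at 3 weeks and 109 at 2 months. Their Lox level was 35.4, 117 and 107 CPM at the 3 ages, while Fbn1, the main fibrillin of mature microfibrils, stood at 215, 40.4 and 23.6 CPM. Mural-like cells thus held more Emilin1 and Lox and less Fbn1 in the later libraries than in the neonatal one, each on few counts: 70, 111 and 97 UMIs for Emilin1. The same cells also held Eln, with 206, 192 and 61 UMIs at the 3 ages. In the neonatal library, 10 of the 180 mural-like cells held 89.8% of the Eln UMIs.

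Against mural-like cells, 9 of the 10 genes were higher in fibroblast-like cells and 0 lower, where 9.06% of the 13260 genes in the fit were higher and 8.35% lower. The differences ran from a log2 fold of 2.16 ± 0.442 (SE) for Lox (edgeR, adjusted p = 0.0216) to 7.72 ± 0.624 for Fbln2 (adjusted p = 0.000851). Emilin1 was the exception, with a log2 fold of -0.85 ± 0.268 (adjusted p = 0.0783). Without the neonatal library it passed the threshold as lower in fibroblast-like cells, with a log2 fold of -1.12 (adjusted p = 5.25e-06). The calls for Fbn1, Fbn2 and Lox were lost without the 3-week library (adjusted p = 0.252, 0.0612 and 0.0654) and without the 2-month library (adjusted p = 0.214, 0.15 and 0.072). Of the pathway list, 22 of 43 genes rose and 2 fell. Dcn, a fibroblast-like gate marker, was among the 22, so its rise was set in part by the gate. Itga8, also a gate marker, was among the 2 that fell. The shares of all genes leave gate markers out.

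Schwann-like cells (87, 200 and 405 cells) carried the microfibril-associated glycoproteins at levels that differed by age. Mfap2 stood at 734.5 CPM in the neonatal library, 23.8 at 3 weeks and 6.02 at 2 months. Mfap5 ran the other way, at 4.58, 252.5 and 275 CPM, but a minority of the cells carried it: 21% had an Mfap5 UMI at 3 weeks, when 10 of 200 cells held 69.8% of the UMIs, and 23.2% at 2 months. Fbln2 in these cells was at 235, 31.3 and 21.1 CPM, and Fbln5 at 176, 38.8 and 57.2 CPM. Mfap4, abundant in fibroblast-like cells, was at 13.7, 31.3 and 13.5 CPM in the same Schwann-like cells. Their median depth was 8061, 3352.5 and 2850 UMIs, and its part in these differences was not tested.

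Endothelial-like cells passed 50 cells only at 3 weeks (84 cells), where Fbln5, which tethers elastin to the microfibril, reached 358 CPM (95% interval 328 to 390.0). The same cells had Eln at 261.5 CPM and Fbln2 at 134 CPM. Skeletal muscle-like cells had Fbn1 at 128 CPM in the neonatal library and 100 CPM at 3 weeks, on 50 and 55 cells.

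Within fibroblast-like cells, the members followed different courses over the 3 ages. Fbn2, the fibrillin known for its expression in developing tissue, was highest in the neonatal library and 22.5-fold lower at 2 months than there. Eln, Mfap4 and Emilin1 peaked at 3 weeks, as did Fbn1 and Mfap5. Mfap2 and Lox were highest in the neonatal library, and so was Fbln5, though as a mean of CPM per cell it was 0.18 higher on the log2 scale at 2 months than in the neonatal library. Fbln2 differed little between the first 2 ages and was lowest at 2 months. The 3 comparisons below share libraries, and the median log2 ratio of all measured genes was -0.20 for 3 weeks over neonatal, -0.09 for 2 months over 3 weeks and -0.30 for 2 months over neonatal, so a gene at 0 lay slightly above the typical gene.

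**Figure D2:**
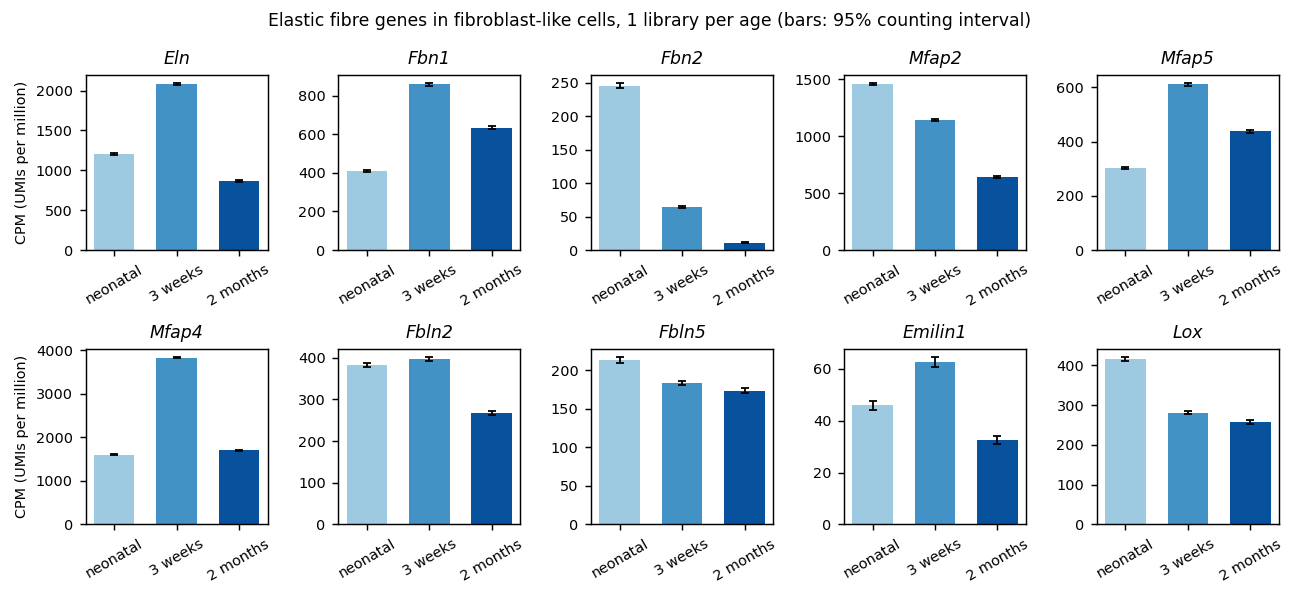
Level of each gene in fibroblast-like cells (CPM, linear axes from 0, one panel per gene) in the neonatal, 3-week and 2-month libraries, with bars for the 95% counting interval. Fbn2 is lower at each later age and stands at 10.9 CPM at 2 months, Mfap2 is also lower at each later age, and Eln and Mfap4 are highest at 3 weeks.

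Eln encodes elastin itself. Its level in fibroblast-like cells was 1203 CPM (95% interval 1194 to 1212) in the neonatal library, 2085 (2074 to 2096) at 3 weeks and 866 (858 to 874) at 2 months. It was therefore 1.73-fold higher at 3 weeks than in the neonatal library and 2.41-fold lower at 2 months than at 3 weeks. The neonatal level came from few cells: the tenth of thinned cells with the most Eln UMIs, 597 of 5964, held 67.9% of them, compared with 43.2% at 3 weeks and 48.5% at 2 months. The highest thinned cell had 142 Eln UMIs out of 1500 in the neonatal library, 67 at 3 weeks and 20 at 2 months.

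The fibrillins Fbn1 and Fbn2 build the microfibril. Fbn1 was at 411 CPM in the neonatal library, 859 at 3 weeks and 634 at 2 months. Fbn2 was at 246 (242 to 249.9), 64.3 (62.4 to 66.2) and 10.9 (10.1 to 11.9) CPM at the same ages. Fbn1 was thus 2.09-fold higher at 3 weeks than in the neonatal library, while Fbn2 was 3.82-fold lower. At 2 months Fbn2 was a further 5.88-fold lower than at 3 weeks. A Fbn2 UMI was present in 25.7%, 8.3% and 1.27% of thinned cells, so fewer cells showed it at each later age. Among keratinocyte-like cells at 2 months 0 of 1645 thinned cells had one, and 0.422% had one before thinning, against 8.92% of fibroblast-like cells before thinning.

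Mfap2 and Mfap5 encode the glycoproteins MAGP-1 and MAGP-2, which bind fibrillin. Mfap2 stood at 1460, 1145 and 643 CPM in the neonatal, 3-week and 2-month libraries, 2.27-fold lower at 2 months than in the neonatal library. Mfap5 stood at 304, 611 and 438 CPM, 2.01-fold higher at 3 weeks than in the neonatal library. These paralogs therefore differed in direction between the neonatal and 3-week libraries, Mfap2 lower and Mfap5 higher in the later one. In the neonatal library 597 of 5964 thinned cells held 95.5% of the Mfap5 UMIs, and the share of cells with one was 11.5%, 37.4% and 27.4% at the 3 ages. Mfap4, which binds tropoelastin and fibrillin, stood at 1599, 3827 and 1703 CPM. It was 2.39-fold higher at 3 weeks than in the neonatal library and 2.25-fold lower at 2 months than at 3 weeks.

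The other 4 genes encode proteins that join elastin to its scaffold or cross-link it. Fbln2 was at 382, 397 and 268 CPM in the neonatal, 3-week and 2-month libraries, and Fbln5 at 213, 183 and 173 CPM. Emilin1, which sits at the interface of elastin and microfibril, was at 46.0, 62.6 and 32.5 CPM. Lox, which starts cross-linking by oxidising lysines of elastin and collagen, was at 415, 280 and 257 CPM. None of these 4 genes differed 2-fold between any pair of ages, and the widest gap among them was Emilin1, 1.93-fold lower at 2 months than at 3 weeks.

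Counted over the set, 3 members were at least 2-fold higher at 3 weeks than in the neonatal library (Fbn1, Mfap5 and Mfap4), where 8.25% of 8513 genes were, and 1 was at least 2-fold lower (Fbn2), where 10.8% were. The Fbn1 and Mfap5 calls were close to the limit. With mitochondrial, ribosomal protein and haemoglobin genes left out of the total, their log2 ratios were 0.84 and 0.79 and only Mfap4 stayed past it. At 2 months against 3 weeks, 0 members were 2-fold higher (3.24% of 7989 genes were) and 3 were 2-fold lower (3.29% were), namely Eln, Fbn2 and Mfap4. At 2 months against neonatal, 0 members were 2-fold higher (10.9% of 8629 genes were) and 2 were 2-fold lower (17.3% were), namely Fbn2 and Mfap2. TMM scaling moved Mfap2 inside the limit, at a log2 ratio of -0.91. The median log2 ratio over the 10 genes was 0.25, -0.70 and -0.49 in the 3 comparisons.

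In the wider pathway list, more genes were higher than lower in the later libraries relative to the neonatal one. At 3 weeks against neonatal, 16 of its 40 measured genes were at least 2-fold higher and 2 were lower, where 8.25% and 10.8% of all measured genes were, with a median log2 ratio of 0.62. At 2 months against 3 weeks, 2 of 39 were higher and 4 lower, where 3.24% and 3.29% of all were, with a median of 0.00. At 2 months against neonatal, 14 of 38 were higher and 5 lower, where 10.9% and 17.3% of all were, with a median of 0.51.

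Among the proteases that can cut elastin, Ctsk (cathepsin K) was at 243 CPM in the neonatal library, 712 at 3 weeks and 2647 at 2 months. Mmp2, a gelatinase, was at 539.5, 899 and 1600 CPM, and Ctsl (cathepsin L) at 422, 975.1 and 1227 CPM. These 3 genes were highest at 2 months, when Eln was lowest, and Ctsk was 3.44 higher on the log2 scale at 2 months than in the neonatal library. Mmp9, Mmp12, Ctss and Elane stayed under 1 CPM in fibroblast-like cells of all 3 libraries.

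Of the genes that act on microfibrils or TGF-beta, Ltbp1, which anchors latent TGF-beta to fibrillin, was at 28.5, 82.5 and 179 CPM in the neonatal, 3-week and 2-month libraries. Ltbp2 was at 19.1, 76.3 and 32.3 CPM and Adamtsl2, a secreted protein that binds fibrillin, at 0.973, 35.0 and 6.75 CPM, so both peaked at 3 weeks as Eln did. Tgfb2 was at 21.4, 127 and 149 CPM and Tgfb1 at 99.05, 39.7 and 40.6 CPM, so these ligands differed in direction. Efemp1 (fibulin-3) was at 71.8, 428 and 439.9 CPM, Fbln7 at 1.39, 11.7 and 13.4 CPM and Tnxb (tenascin-X) at 193, 544 and 483 CPM. All 3 were higher in both later libraries than in the neonatal one.

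The remaining pathway genes that differed 2-fold between some pair of ages did so in both directions. Adamtsl4, another fibrillin-binding protein, was at 15.04, 34.4 and 42.6 CPM at the 3 ages. At 2 months against neonatal, the log2 ratio was 1.11 for Bmp1, 1.04 for Glb1, 1.16 for Itgb3, 1.11 for Itgb5 and 2.00 for Dcn. It was -2.22 for Adamts17, -1.34 for Hmcn1, -1.29 for Itga8 and -1.58 for Vcan (versican). Pcolce and Loxl3 were higher at 3 weeks than in the neonatal library, by 1.74 each on the log2 scale, and Fkbp10 was lower at 2 months than at 3 weeks, with a log2 ratio of -1.18.

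Fibroblast-like cells were then split by subtype markers, again with none of the 10 genes among them. Cells that scored for none or for several subtypes (70.7%, 64.6% and 53.9% of fibroblast-like cells at the 3 ages) stayed unnamed. Interstitial progenitor-like cells (Pi16, Dpp4 and related markers) numbered 134, 493 and 948, and reticular-like cells (Sfrp4, Thbs4, Mgp and others) numbered 235, 149 and 16. Near the cut lay 1, 34 and 13 of the progenitor-like cells and 52, 22 and 6 of the reticular-like cells. In progenitor-like cells the median score for any other subtype was at most 0.308, against at least 0.628 for their own. In reticular-like cells of the neonatal and 3-week libraries it was at most 0.287, against at least 0.463. Some sets of cells are called by their marker genes, such as the Cilp Dkk2 Cyp26b1 fibroblasts, and only subtypes with 50 or more cells in a library are described.

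**Figure D3:**
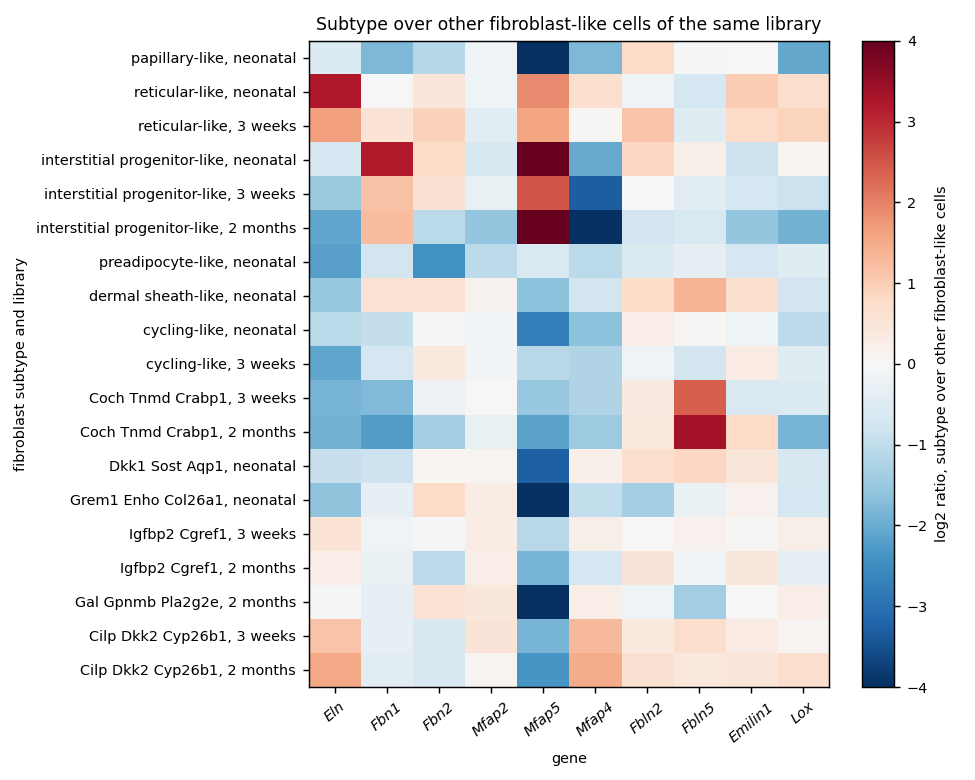
Heat map of the log2 ratio of each gene (columns) in a fibroblast subtype over all other fibroblast-like cells of the same library (rows, subtypes with 50 or more cells), with the colours held at -4 and 4. Red is higher in the subtype: Eln stands out in reticular-like cells, Fbn1 and Mfap5 in interstitial progenitor-like cells, and Fbln5 in Coch Tnmd Crabp1 fibroblasts.

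In interstitial progenitor-like cells Mfap5 rose and Mfap4 fell relative to the other fibroblast-like cells, and the other 8 members did not pass the test. The Mfap5 level of these cells was 4296 CPM in the neonatal library, 2346 at 3 weeks and 2074 at 2 months, against 170, 409 and 88.9 CPM in the other fibroblast-like cells. The log2 fold was 3.92 ± 0.573 (edgeR with the library as a block, 3 libraries, adjusted p = 0.0163). At 2 months these cells were 19.6% of fibroblast-like cells and held 83.3% of their Mfap5 UMIs, whereas in the neonatal library 2.24% of cells held 45.9%.

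Mfap4 was the reverse. Progenitor-like cells had 406 CPM in the neonatal library, 433 at 3 weeks and 76.8 at 2 months, against 1639, 4221 and 2049 CPM in the other fibroblast-like cells, a log2 fold of -3.36 ± 0.673 (edgeR, adjusted p = 0.0364). At 2 months all 73 thinned Mfap4 UMIs of progenitor-like cells came from at most 94 of 935 cells. The Mfap4 call was lost without the 3-week library (adjusted p = 0.071), with a log2 fold of -3.40, and without the library block (adjusted p = 0.0835). The share of all 13372 genes called was 5.58% higher and 5.88% lower, and the members called were 1 higher and 1 lower.

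Fbn1 in progenitor-like cells was at 2957 CPM in the neonatal library, 1722 at 3 weeks and 1197 at 2 months, against 326, 759 and 514 CPM in the other fibroblast-like cells. It was higher in 3 of 3 libraries, but its log2 fold of 1.81 ± 0.549 missed the threshold (edgeR, adjusted p = 0.103). It passed without the neonatal library (log2 fold 1.12, adjusted p = 0.0303) and without the 2-month library (2.26, adjusted p = 0.0482). As pooled CPM, Eln was lower in progenitor-like cells in 3 of 3 libraries, at 763, 807 and 238.5 CPM against 1218, 2233 and 999.6 CPM, with a log2 fold of -1.42 ± 0.398 (adjusted p = 0.0843). Without the neonatal library Eln passed at -1.84 (adjusted p = 0.0237). The share of thinned cells with an Eln UMI ran the other way in the neonatal library, at 53% of progenitor-like cells, with a median of 1 UMI, and 43.7% of all fibroblast-like cells, with a median of 0. At 3 weeks the share was 54.2% of progenitor-like and 70.6% of all fibroblast-like cells, and at 2 months 28.3% and 53.2%. Emilin1 was also lower in 3 of 3 libraries, with a log2 fold of -1.05 ± 0.256 (adjusted p = 0.0604).

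Mfap2, Fbln5, Lox, Fbln2 and Fbn2 missed the threshold by more, with adjusted p between 0.209 and 0.994. Their log2 folds lay between -0.90 for Lox and 0.13 for Fbn2. With 3 libraries, a missed call does not show that a gene was equal in the 2 sets of cells.

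In the pathway list, 5 of 43 genes rose in progenitor-like cells and 7 fell (edgeR, adjusted p from 0.00545 to 0.0411). Of all 13372 genes in the fit other than gate markers, 5.58% rose and 5.88% fell. The genes that rose included 2 cross-linking enzymes, Loxl3 (log2 fold 2.92 ± 0.352) and Loxl1 (1.80 ± 0.246), along with Emilin2 (3.28 ± 0.333), Adamtsl4 (2.34 ± 0.416) and Efemp2 (fibulin-4, 1.54 ± 0.218). Among those that fell were Adamtsl2 (-3.23 ± 0.302), Ltbp2 (-3.45 ± 0.725), Tgfb1 (-2.32 ± 0.256) and Loxl4 (-1.88 ± 0.265). Adamts17 (-3.84 ± 0.499) and Fbln7 (-3.68 ± 0.674) fell as well, and so did Itga8 (-3.42 ± 0.299), which is itself a gate marker of dermal sheath. Lysyl oxidase family members thus stood on both sides.

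**Figure D4:**
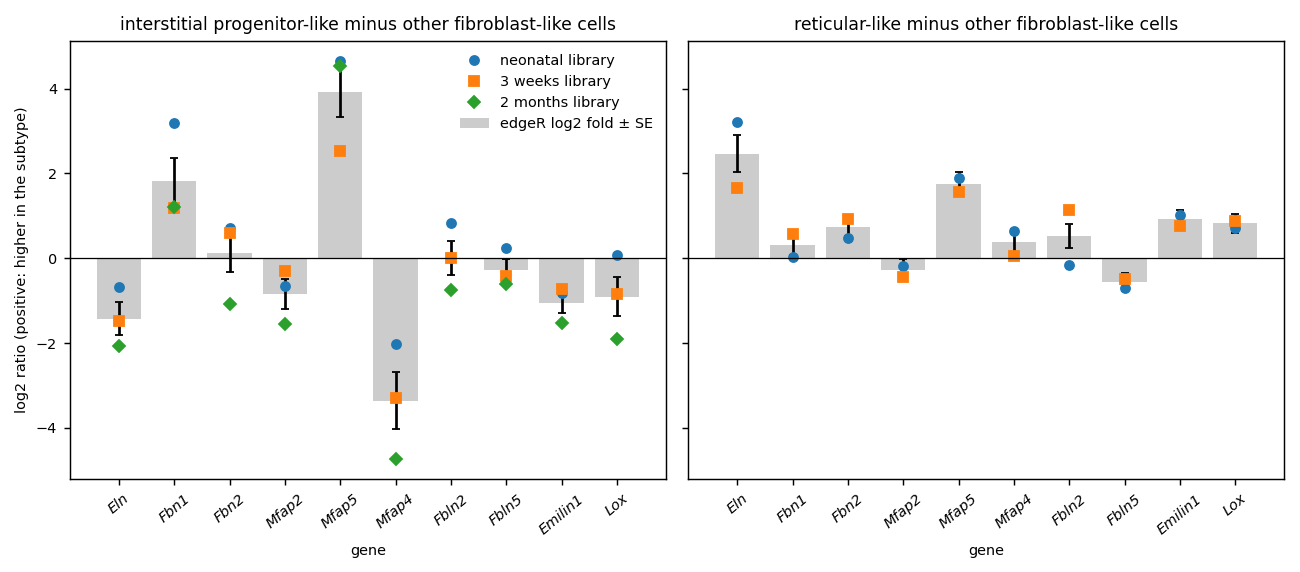
Log2 ratio of each gene (positive: higher in the subtype) for interstitial progenitor-like cells (left) and reticular-like cells (right) against other fibroblast-like cells. Grey bars with SE are edgeR log2 folds and points are the ratios in single libraries. Mfap5 is above 0 in every library of both panels, and Mfap4 is below -2 in all 3 libraries on the left.

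Eln was higher in reticular-like cells than in the other fibroblast-like cells of the neonatal and 3-week libraries. It stood at 8012 CPM (95% interval 7908 to 8116) in neonatal and 6241 (6123 to 6361) in 3-week reticular-like cells, against 862 and 1980 CPM in the other fibroblast-like cells. The log2 fold over these 2 libraries was 2.46 ± 0.441 (edgeR with the library as a block, adjusted p = 0.00812). In the neonatal library 3.93% of fibroblast-like cells held 31.7% of the Eln UMIs. They were uneven even so, since 24 of 235 thinned reticular-like cells held 63.5% of their Eln UMIs and the median cell had 1. At 3 weeks the median thinned reticular-like cell had 5, and 15 of 149 cells held 39.4%. Reticular-like cells held 7.34% of the Eln UMIs of that library's fibroblast-like cells, and an Eln UMI was seen in 77.9% of them after thinning. Igfbp2 Cgref1 fibroblasts held 18.5%, and the thinned median was 6 in Cilp Dkk2 Cyp26b1 fibroblasts, of which 91.3% had an Eln UMI.

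Mfap5 was also higher in reticular-like cells, at 998 and 1731 CPM in the neonatal and 3-week libraries against 269 and 583 CPM (log2 fold 1.76 ± 0.264, adjusted p = 0.00313, edgeR). Emilin1 was at 89.4 and 104 CPM against 43.8 and 61.6 CPM (0.92 ± 0.224, adjusted p = 0.0364). These 3 were the members called as higher, where 3.39% of 13909 genes were, and 0 were lower, where 2.83% were. Without the library block none of the 3 passed (adjusted p = 0.652 for Eln, 0.705 for Mfap5 and 0.724 for Emilin1). DESeq2 also called Lox (adjusted p = 0.026) and did not call Emilin1 (adjusted p = 0.0515). An unadjusted edgeR p below 0.05 was reached by 6 members and by 2425 of the 13909 genes. Lox was at 659 and 506.5 CPM against 403 and 275 CPM, a log2 fold of 0.82 ± 0.228 (adjusted p = 0.0634). Fbn2 and Fbln5 stood at 0.73 ± 0.216 (adjusted p = 0.0815) and -0.56 ± 0.210 (adjusted p = 0.177), and Fbn1, Mfap2, Mfap4 and Fbln2 had adjusted p of 0.407 or more.

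Of the pathway list, 7 of 44 genes rose in reticular-like cells and 3 fell (edgeR, adjusted p from 3e-04 to 0.0313). Of all 13909 genes in the fit other than gate markers, 3.39% rose and 2.83% fell. Fbln7 (log2 fold 3.73 ± 0.295), Loxl3 (2.68 ± 0.241) and Adamtsl2 (2.61 ± 0.554) rose most. Fbln1 (1.65 ± 0.238), Tgfb3 (1.09 ± 0.230), Ltbp3 (1.04 ± 0.229) and Ltbp4 (adjusted p = 0.0313) rose by less. Efemp1 (-2.51 ± 0.249), Loxl4 (-1.86 ± 0.390) and Hmcn1 (-1.13 ± 0.246) fell. Adamtsl2 and Fbln7 were called in the opposite direction in progenitor-like cells, and Loxl3 and Loxl4 in the same direction. Each contrast had the rest of the fibroblast-like cells, largely the same cells, as its other side.

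The other subtypes were each held to 1 or 2 libraries and are described without a test. Cilp Dkk2 Cyp26b1 fibroblasts (219 cells at 3 weeks, 561 at 2 months) had Eln at 4427 and 2191 CPM, against 2013 and 744 CPM in the other fibroblast-like cells of those libraries. Their Mfap4 level was 8990 and 4163 CPM, against 3667 and 1476 CPM, while Mfap5 was at 172 and 91.3 CPM, against 624 and 469.5 CPM. In this set, elastin and Mfap4 were high together and Mfap5 was low.

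Coch Tnmd Crabp1 fibroblasts (298 cells at 3 weeks, 316 at 2 months) stood apart by Fbln5, at 849 CPM at 3 weeks and 1303 CPM at 2 months, against 162 and 129.5 CPM in the other fibroblast-like cells. They were 6.54% of fibroblast-like cells at 2 months and held 28.1% of the Fbln5 UMIs. Their Eln level was low at both ages, at 581.5 and 239 CPM against 2133 and 890.2 CPM.

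Igfbp2 Cgref1 fibroblasts (616 cells at 3 weeks, 94 at 2 months) had Eln at 2880 and 1030 CPM and Mfap4 at 4408 and 1048 CPM. Gal Gpnmb Pla2g2e fibroblasts (243 cells at 2 months) had Mfap4 at 2023 CPM and Eln at 838 CPM with Mfap5 at 7.43 CPM. Mfap5 was scarce in neonatal sets as well, at 12.9 CPM in the 580 Grem1 Enho Col26a1 fibroblasts, 32.1 CPM in the 86 Dkk1 Sost Aqp1 fibroblasts and 17.8 CPM in the 195 papillary-like cells (Ntn1, Apcdd1, Lef1 and others). Those Grem1 Enho Col26a1 fibroblasts had Mfap2 at 1748 CPM, and Mfap5 was low in them while Mfap2 was not.

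Among the neonatal subtypes, papillary-like cells had Fbln2 at 651 CPM and Lox at 101 CPM, against 376 and 422 CPM in other fibroblast-like cells. Dermal sheath-like cells (96 cells) had Fbln5 at 524 CPM and Fbn1 at 606 CPM, against 206 and 407 CPM. Preadipocyte-like cells (222 cells) had Eln at 281 CPM and Fbn2 at 47.5 CPM, against 1253 and 257 CPM. Cycling-like cells had Eln at 579 CPM in the neonatal library and 508 CPM at 3 weeks, both below the other fibroblast-like cells of their library.

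The age course of some members differed between progenitor-like and other fibroblast-like cells. At 3 weeks over neonatal, the log2 ratio of Fbn1 was -0.78 in progenitor-like cells and 1.22 in the other fibroblast-like cells. For Mfap5 it was -0.87 and 1.27. The higher level of both genes at 3 weeks was seen in fibroblast-like cells outside the progenitor-like set. At 2 months over neonatal, Mfap5 was lower in progenitor-like cells (log2 ratio -1.05) and in the others (-0.94), while the whole class was higher, at 438 CPM at 2 months against 304 CPM in the neonatal library. The progenitor-like share of fibroblast-like cells was 19.6% at 2 months and 2.24% in the neonatal library. Fbn2 was lower at each later age inside and outside this set: at 2 months over neonatal its log2 ratio was -6.12 in progenitor-like cells and -4.32 in the others. Eln, Mfap4 and Mfap2 were all lower at 2 months than at 3 weeks in each of the 4 named subtypes present at both ages, with log2 ratios for Eln of -1.76 in progenitor-like cells, -1.48 in Igfbp2 Cgref1, -1.28 in Coch Tnmd Crabp1 and -1.02 in Cilp Dkk2 Cyp26b1 fibroblasts. No difference between subtypes in these age ratios was tested, as each age has 1 library.

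**Figure D5:**
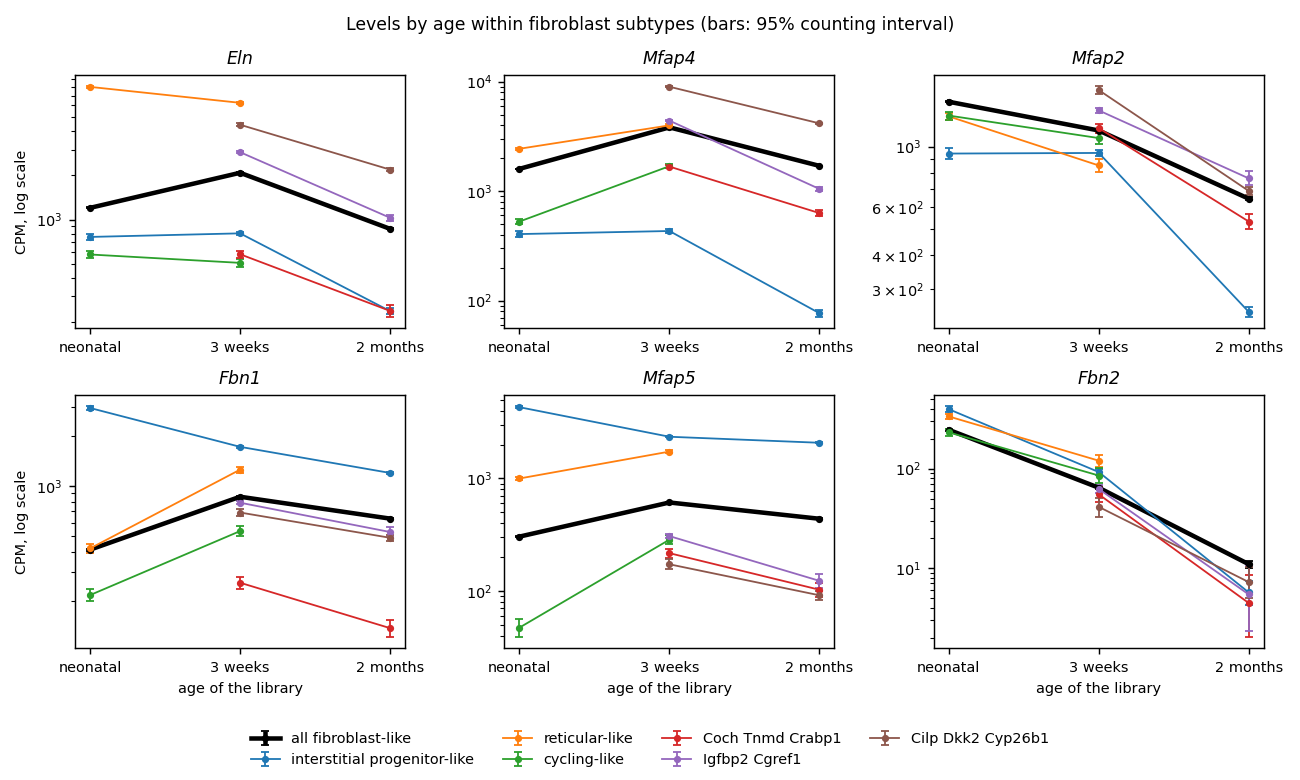
Level (CPM, log axis) of 6 of the genes by age of the library in all fibroblast-like cells (black) and in the subtypes with 50 or more cells at 2 or more ages, with bars for the 95% counting interval. Fbn2 is lower at each later age in every line, while Fbn1 and Mfap5 are lower at 3 weeks than in the neonatal library in interstitial progenitor-like cells and higher in all fibroblast-like cells.

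Likeness between genes was described over the 19 subtype by library profiles (8 neonatal, 6 at 3 weeks and 5 at 2 months), which share libraries and cells' depth and so are not independent. On log2(CPM + 1), Pearson's r was 0.73 for Eln with Mfap4, 0.69 for Eln with Lox and 0.73 for Fbn1 with Mfap5, and 0.68, 0.73 and 0.70 after each library was centred. The r of Fbn2 with Mfap2 was 0.74, and 0.31 after centring. Mfap2 and Mfap5 had an r of -0.38, and -0.73 after centring, so within a library the subtypes with more of one tended to have less of the other.

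Among the 9349 genes ranked, those most like Eln were Adamtsl2 (r = 0.744), Adamts10 (0.727), Ltbp2 (0.726), Gm266 (0.694) and Bmp5 (0.691). The first 3 belong to the pathway list, which was chosen with earlier results of these data known, so their rank is no independent check. For Fbn1 they were Cd248 (0.863), Plcb4 (0.856), Ergic1 (0.842), Htra2 (0.838) and Hebp2 (0.832). For Mfap5 they were Spsb1 (0.919), Thbs3 (0.905), Dok1 (0.902), Gng5 (0.884) and the cross-linking enzyme Loxl3 (0.883). For Fbn2 they were Usp29 (0.915), Usmg5 (0.901), Peg3 (0.887), Get4 (0.882) and Sorcs2 (0.867), and after centring their r lay between 0.178 and 0.483, whereas it stayed at 0.658 or above for the genes most like Eln, Fbn1 and Mfap5.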

How the data were processed

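The authors deposited UMI counts per gene and barcode for 3 libraries made with 10x Chromium 3′ version 2 kits. The submitters' processing notes list Cell Ranger 3.0.2 and Seurat 2.0, with mm10 as the genome. Barcodes with at least 300 genes, 500 UMIs and at most 10% mitochondrial UMIs were kept. A class score was the mean of scaled log expression over its markers. A cell was called when its top score reached 0.25 and the second was at most 0.5 of it. Subtypes needed 0.35, a second of at most 0.7 of the top and 3 detected markers. Cells of mixed class were left out, and no doublet caller was used except as an alternative. Counts were summed per class and library and given as CPM with exact Poisson intervals. Between ages, members at least 2-fold apart were counted, among genes at 10 CPM or more in either library, because 1 library per age allows no test. Contrasts between classes used edgeR 4.0.16 (R 4.3.3) with TMM scaling, the library as a block and Benjamini-Hochberg adjustment at 0.05. edgeR gives no SE, so each SE is the absolute log2 fold divided by the square root of its quasi-likelihood F statistic. Each contrast took the libraries with 50 or more cells of both classes, and the libraries stand in for repeats. DESeq2 1.42.0 was an alternative, and the edgeR step was tested on simulated data. There, between 0% and 20.4% of true log2 changes of 1 were called, depending on the contrast. For true log2 changes of 2 the share was between 55.9% and 69.9%, and between 0.0354% and 0.0985% of unchanged genes were called. The text names all 10 members, the pathway genes at 10 CPM or more that differed 2-fold between any pair of ages, and the 5 genes most like each of 4 members. Other pathway genes are named after their values were seen, because a contrast called them or, for 4 proteases, because they were near 0. The members and all lists were chosen with earlier results of these data known. Clustering and thinning used Python 3.11.15 and scanpy 1.11.5.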

Additional observations from a re-analysis of the deposited data

Results flagged for a closer look

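Some members lay above the other fibroblast-like cells of the same library in one library of a subtype and below them in another, as log2 ratios of the subtype over the other cells. None of these differences between libraries was tested, since each age has 1 library. In interstitial progenitor-like cells, Fbn2 was at 0.72 in the neonatal library, 0.60 at 3 weeks and -1.09 at 2 months. Fbln5 in these cells was at 0.23, -0.41 and -0.62, and Fbln2 at 0.83 in the neonatal library and -0.75 at 2 months. In reticular-like cells, Fbln2 was at -0.15 in the neonatal library and 1.13 at 3 weeks. In cycling-like cells, Fbln2 was at 0.28 in the neonatal library and -0.17 at 3 weeks. In Coch Tnmd Crabp1 fibroblasts, Emilin1 was at -0.62 at 3 weeks and 0.78 at 2 months. In Igfbp2 Cgref1 fibroblasts, Mfap4 was at 0.24 at 3 weeks and -0.72 at 2 months, and Lox at 0.23 and -0.37.

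Other members had age ratios of opposite sign in progenitor-like and other fibroblast-like cells, and these differences were not tested either. At 3 weeks over neonatal, the log2 ratio was -0.78 in progenitor-like and 1.22 in other fibroblast-like cells for Fbn1, -0.87 and 1.27 for Mfap5, and -0.73 and 0.09 for Fbln2. At 2 months over neonatal, it was -1.30 and 0.66 for Fbn1 and -2.40 and 0.32 for Mfap4. The progenitor-like cells in these ratios numbered 134 in the neonatal library, 493 at 3 weeks and 948 at 2 months.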

How the results depend on the processing

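The number of members at least 2-fold higher at 3 weeks than in the neonatal library was 3, and 1 with mitochondrial, ribosomal protein and haemoglobin genes left out of the total, with a mitochondrial limit of 5% or with a stricter gate. The number lower at 2 months than at 3 weeks was 3, and 5 at a limit of 1.5-fold. At 2 months over neonatal, the number lower was 2, and 1 with TMM scaling, and the number higher was 0, and 1 with the mean CPM per cell or at 1.5-fold. No share of all genes was counted at 1.5-fold, so the counts at that limit have no background beside them. Of the members' age ratios under the alternatives, 148 lay outside the counting interval of the main value and 92 inside it. Over 9 settings, the log2 ratio of Eln at 3 weeks over neonatal ran from 0.571 to 0.992. That of Mfap4 at 2 months over neonatal ran from -0.145 to 0.364 and so changed sign. All 10 members stayed higher in fibroblast-like than keratinocyte-like cells under every alternative run. Against mural-like cells, leaving out 1 library gave between 0 and 1 members lower, and between 6 and 9 higher. In progenitor-like cells, the number higher was 1, and 2 with DESeq2 and between 1 and 2 with 1 library left out. The number lower was 1: it was 3 with DESeq2 or the stricter gate, 2 without TMM scaling or without a filter on low counts, 0 without the library block, and between 0 and 2 with 1 library left out. In reticular-like cells, the number higher was 3, 0 without the library block and 5 with the stricter gate. The sign turned in progenitor-like cells for Fbln2 (-0.024 without the filter, -0.023 with the stricter gate and between -0.449 and 0.495 with 1 library left out) and for Fbn2 (between -0.190 and 0.738 with 1 library left out). The cause of these changes was not tested. The mural contrast with the 5% limit was not run because 2 libraries had under 50 cells, nor was the reticular contrast with 1 of its 2 libraries left out. No paired analysis was possible between ages because each age has 1 library and the labels give no replicate numbers.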

Other observations

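Cells of classes under 50 cells in a library, and cells with no class (1048, 1011 and 1205 in the neonatal, 3-week and 2-month libraries), enter no level given above. Melanocyte-like cells at 2 months (78 cells, median 1746 UMIs) had Fbln5 at 63.2 CPM, on 9 UMIs in 7 cells. Their Fbln2 was at 35.1 CPM, on 5 UMIs in 5 cells. The same cells held 46 UMIs of Col1a1 and 43 of Col3a1, which are fibroblast-like gate markers. Eln, Mfap2, Mfap5, Emilin1 and Lox were at 0 UMIs in them, which allows up to 21.1 CPM of each.

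Fibroblast-like cells that scored for no single subtype followed the age course of the whole class for Eln, at 1020 CPM in the neonatal library, 2034 at 3 weeks and 901 at 2 months. Their Mfap5 level was 151, 407 and 92.8 CPM.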
